A study of Mus musculus with 6 samples.

Results

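The comparison described here is between the stomach antrum of Satin mice and that of C57/BL6 mice (here BL6). Its members are 4 of the 6 arrays of the series, chosen by their titles: 2 titled Satin and 2 titled as C57/BL6 controls. The other 2 arrays are titled as controls of the Beige strain. They entered the fit, so that the 3 strains share an estimate of the spread, and their values are given beside those of the compared arrays. All 6 arrays carried RNA of the same tissue, and the labels record no treatment for any group. The gene mutated in Satin is Foxq1 and that mutated in Beige is Lyst, and BL6 is the group with neither mutation. The array titles give strains and no genotypes, so they do not state whether Satin mice also carry the Lyst mutation. For all groups the age and sex of the animals, and for Satin and Beige the genetic background, were not given in the sources used here, so that the Satin mutation and the rest of the strain background cannot be told apart. According to the design text 2 mice per strain were used, but no label ties an array to 1 animal, and p-values therefore measure the spread between arrays, which may be partly technical.

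The antrum is the lower part of the stomach. Its mucosa is lined by surface mucous cells, also called pit cells, which secrete the gel-forming mucin Muc5ac together with trefoil and gastrokine peptides. Below them lie glands with mucous cells that secrete Muc6, and endocrine cells that release gastrin, somatostatin and serotonin. Foxq1 is a forkhead transcription factor expressed in the stomach epithelium and in hair, where its loss gives the Satin coat its sheen.

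Levels are given as quantile-normalized log2(signal + 32), and a difference is Satin minus BL6 on that scale with its standard error (SE) from the fit. A fold change on this scale understates the change of a dim gene. The markers of the tissue were high on the arrays of both strains: Gkn1, Gkn2, Tff1, Tff2 and Pgc lay between 12.82 and 13.29 and gastrin (Gast) between 10.18 and 12.05. The median deposited signal was 47.6 and 38.2 for BL6 and 74.15 and 58.6 for Satin. Signal of the 5' Gapdh control probe set, divided by that of the 3' one to follow RNA integrity, gave 0.526 on BL6 replicate 1, 0.988 on BL6 replicate 2, and 1.18 and 1.16 on the Satin arrays. Markers of the pancreas stood apart on both arrays numbered 2: the mean level over 18 acinar and islet genes was 7.01 and 11.72 on the BL6 arrays and 6.88 and 10.34 on the Satin arrays. Across probe sets, the BL6 arrays correlated with each other at 0.92 and the Satin arrays at 0.951, while BL6 replicate 2 correlated with Satin replicate 2 at 0.953. The calls, the medians of gene lists and the uncalled genes chosen by rule were therefore also computed without each array in turn. Further genes named beside them, counts of groups that did not overlap, the neighbours of Foxq1 and the shares by chromosome were not.

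Of 22626 probe sets tested, 48 (0.212%) passed a Benjamini-Hochberg adjusted p of 0.05 in the limma fit and are termed called, 18 higher (0.0796%) and 30 lower (0.133%) in Satin. All 48 differed by more than 2-fold, 27 by more than 4-fold and 13 by more than 8-fold. On all 48 both Satin arrays lay outside the range of the BL6 arrays, which was so for 40.5% of all probe sets in either direction. The calls that carry a gene symbol belong to 36 genes, 11 higher and 25 lower, and the other 7 called probe sets carry several symbols or none and are not named. Among the named genes the rises were led by Chil4, a chitinase-like lectin, and the falls by Fabp2, an intestinal fatty acid binding protein, and by Muc5ac. In tissue RNA, a lower level of a transcript can come from fewer cells of a type or from less RNA per cell, and these cannot be told apart. Leaving out Satin replicate 1 reduced the calls from 48 to 5, and leaving out Satin replicate 2, BL6 replicate 1, Beige replicate 1 or Beige replicate 2 reduced them to 19, 20, 17 and 16, while 87 were called without BL6 replicate 2. Of the 48, 4 were called in all 6 omissions and 10 in none, and in none of the 6 omissions or 13 other fits did one of them change sign. The kept sign follows largely from the selection, since the groups of all 48 did not overlap, and it is no separate support. Scaling moves the centre of the scale: the median difference of all probe sets was 0.39 without normalization and 0.45 with scaling to the hybridization controls, where calls split into 910 higher and 26 lower and into 3230 higher and 34 lower, and median centring gave 38 higher and 25 lower. Differences are therefore relative to the centre that quantile normalization sets, and medians of gene lists under these 2 scalings are given relative to all probe sets where their sign depends on it. Of 51 genes named below without a call and followed through the same omissions and fits, 31 passed the threshold in at least 1 of them and 20 in none.

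**Figure D1:**
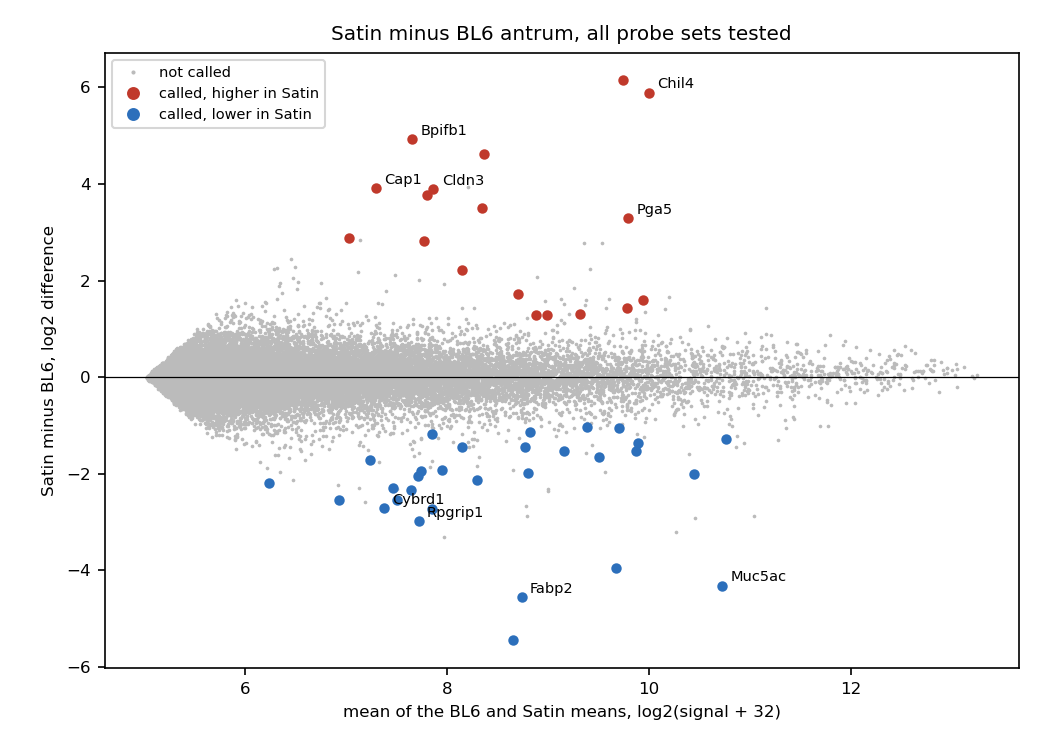
Each point is 1 of the 22626 probe sets tested, with the mean of the BL6 and Satin levels in log2(signal + 32) on the x axis and the log2 difference Satin minus BL6 on the y axis. The 18 probe sets called higher and the 30 called lower are coloured, the genes with the largest differences are named, and Chil4 at 5.89 and Muc5ac at -4.31 lie among bright probe sets where the uncalled points spread least.

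Muc5ac, the main gel-forming mucin of the gastric surface, fell 19.9-fold. Its level was 13.11 and 12.65 on the BL6 arrays and 8.56 and 8.58 on the Satin arrays, with 12.95 and 12.94 on the Beige arrays. The control levels lie near the top of the signal range, where the size of a fall can be understated. In deposited signal these are 7514.3 and 7502.6 in BL6 against 471.8 and 435 in Satin. The Satin arrays lay far below every control array and close to each other, and the remaining Satin signal was still several times the median signal of those arrays. The difference was -4.31 (SE 0.19, limma adjusted p = 0.000232), and the adjusted p did not pass 0.0158 in any omission or other setting. Adh7, the alcohol and retinol dehydrogenase of upper digestive epithelium, fell as well. Its dimmer probe set differed by -0.80 and was not called (adjusted p = 0.332). On its brighter probe set Adh7 went from 9.60 and 9.998 in BL6 to 8.11 and 7.52 in Satin. Its difference was -1.99 (SE 0.22, adjusted p = 0.0146), and the call was lost when any 1 of the 6 arrays was left out, with adjusted p from 0.058 to 0.137.

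Several other genes of surface mucous cells lay near their BL6 levels. Muc1, a membrane mucin, lay at 10.19 and 10.62 in BL6 and 10.53 and 10.20 in Satin, with a difference of -0.04 (SE 0.22). Tff1, the trefoil peptide of pit cells, lay at 12.999 and 13.03 in BL6 and 13.21 and 13.24 in Satin, and Gkn1 and Gkn2 differed by 0.02 and 0.05 with adjusted p of 0.991 and 0.973. Tff1, Gkn1 and Gkn2 lie near the top of the signal range, where an array can fail to show a change. Krt20, a keratin of mature surface cells, was lower without a call, at 11.54 and 10.84 in BL6 against 9.37 and 9.84 in Satin (difference -1.58, adjusted p = 0.0747). Cldn18, the gastric claudin, lay at 11.17 and 11.14 in BL6 and 11.63 and 11.54 in Satin (difference 0.43, adjusted p = 0.427). Of 19 measured pit cell genes, 2 were called lower and none higher, and their median difference was 0.00. Over all genes there were 28 calls in 12393 (0.226%, of which 0.0565% higher and 0.169% lower, 1 probe set per gene) and a median of -0.02. The pit cell median ran from -0.10 without BL6 replicate 1 to 0.05 without Satin replicate 2. It was 0.18 without normalization and 0.30 with scaling to hybridization controls (-0.21 and -0.15 relative to all probe sets), and -0.21 with median centring.

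**Figure D2:**
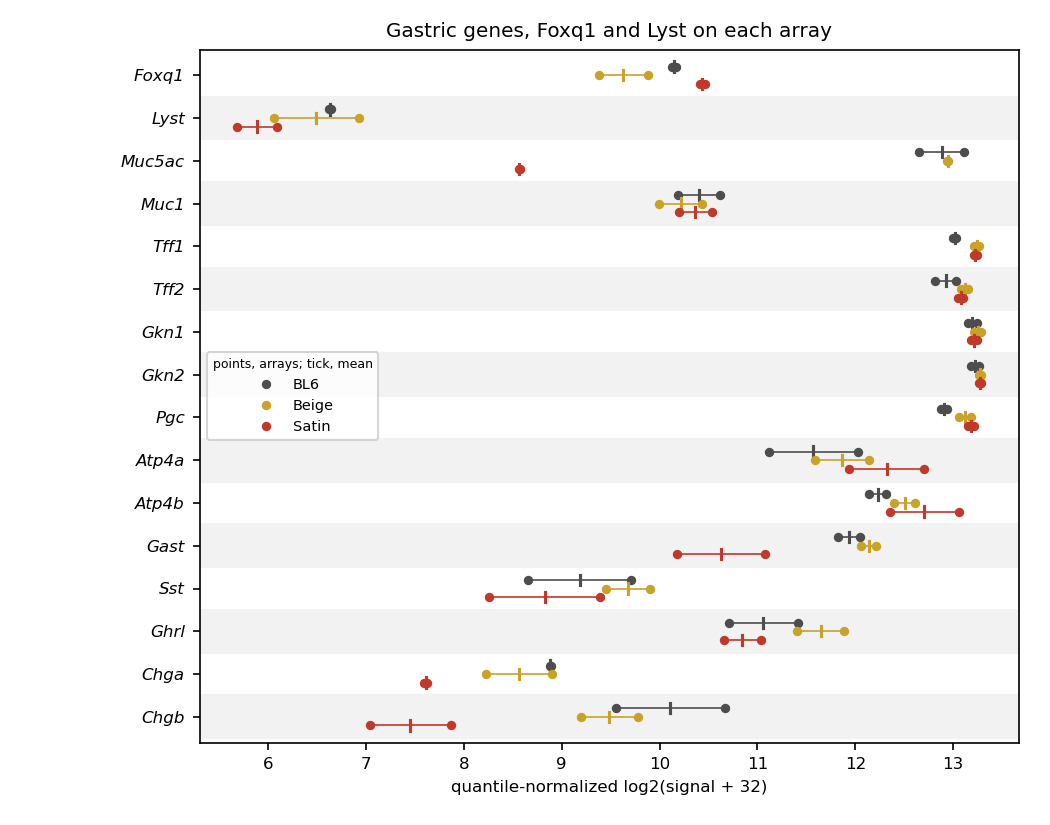
Levels of Foxq1, Lyst and gastric genes on each array, on the x axis as quantile-normalized log2(signal + 32), with points for the 2 arrays of BL6, Beige and Satin and a tick at their mean. The Satin arrays of Muc5ac, at 8.56 and 8.58, lie farthest from the control arrays of their gene, those of Gast, Chga and Chgb lie below theirs by less, and Muc1, Tff1, Tff2, Gkn1 and Gkn2 lie close together in the 3 strains.

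Foxq1 itself, which carries the Satin mutation, was measured at 10.13 and 10.17 in BL6 and at 10.46 and 10.41 in Satin, with Beige at 9.88 and 9.38. The Satin arrays lay above the control arrays by a small margin, and the difference of 0.29 (SE 0.18, adjusted p = 0.676) was not called. Foxq1 did pass without normalization (0.91, adjusted p = 0.0386) and with scaling to hybridization controls (1.03, adjusted p = 0.0102), where all probe sets shift upwards, and its adjusted p reached 1 elsewhere. The probe set measures transcript and does not show whether a working protein is made. Lyst, the gene mutated in Beige, lay at 6.64 and 6.62 in BL6 and 6.09 and 5.68 in Satin (difference -0.75, adjusted p = 0.599). Among the 50 measured genes nearest to Foxq1 on its chromosome, 25 on each side, none was called, 18 had groups that did not overlap (beside 40.5% of all probe sets), and the median difference was -0.07.

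Chil4, also known as Ym2, is a secreted lectin of the chitinase family. It lay at 6.66 and 7.45 on the BL6 arrays and at 12.79 and 13.11 on the Satin arrays, and the Beige arrays read 5.73 and 6.03. In deposited signal, 61.4 and 111.8 in BL6 stood against 7124.5 and 8991.4 in Satin, so the Satin levels lie near the top of the signal range, where the size of a rise can be understated. The rise was 59.4-fold (difference 5.89, SE 0.27, adjusted p = 0.000232), and its adjusted p stayed at or under 0.0158 in all omissions and other settings. Fabp2, which binds fatty acids in enterocytes, went the other way, from 11.33 and 10.70 in BL6 to 6.28 and 6.66 in Satin, with 11.22 and 11.11 in Beige. It fell 23.4-fold (difference -4.55, SE 0.23, adjusted p = 0.000348), and its highest adjusted p over omissions and other settings was 0.0194. In deposited signal Fabp2 read 1927.7 and 1394.1 in BL6 and 65 and 79.7 in Satin, close to the median signal of the Satin arrays.

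Promoter sequences are shown for the genes with the largest rises and falls that have an entry in the RefSeq table of mouse promoters (build GRCm38.p6), which held 27 of the 36 called genes. Each run is the 250 bases before the annotated start, written 5' to 3' on the strand of the gene. Capitals mark matches, on either strand, to the forkhead core motifs TGTTTA and TATTTA and to the TATA box motif TATAAA, and a TATTTA or TATAAA match can overlap another within the same A and T run. The regions are chr3:106219480-106219729 (minus strand) for Chil4, chr2:154190568-154190817 (plus strand, the first of 2 entries) for Bpifb1, chr3:122894822-122895071 (plus strand) for Fabp2 and chr14:52110653-52110902 (plus strand) for Rpgrip1.
Chil4: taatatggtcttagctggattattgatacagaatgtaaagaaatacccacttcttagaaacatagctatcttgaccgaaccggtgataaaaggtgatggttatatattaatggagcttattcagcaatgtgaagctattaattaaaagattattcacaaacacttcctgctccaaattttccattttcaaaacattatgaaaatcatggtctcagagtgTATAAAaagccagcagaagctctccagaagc
Bpifb1: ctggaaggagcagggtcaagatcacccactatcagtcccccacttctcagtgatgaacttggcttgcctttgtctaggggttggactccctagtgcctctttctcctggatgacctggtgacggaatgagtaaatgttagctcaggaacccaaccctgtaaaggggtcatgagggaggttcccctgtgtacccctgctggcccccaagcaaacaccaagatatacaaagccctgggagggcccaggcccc
Fabp2: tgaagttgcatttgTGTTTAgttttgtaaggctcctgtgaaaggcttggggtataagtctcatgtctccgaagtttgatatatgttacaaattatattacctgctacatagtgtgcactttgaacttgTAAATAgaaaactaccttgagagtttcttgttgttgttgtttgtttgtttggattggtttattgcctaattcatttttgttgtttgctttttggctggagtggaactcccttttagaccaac
Rpgrip1: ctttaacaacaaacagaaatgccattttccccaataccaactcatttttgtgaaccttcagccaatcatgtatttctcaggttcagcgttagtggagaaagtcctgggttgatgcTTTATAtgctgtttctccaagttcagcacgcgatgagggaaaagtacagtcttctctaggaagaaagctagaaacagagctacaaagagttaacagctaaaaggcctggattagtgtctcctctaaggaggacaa
The Fabp2 run holds TGTTTA 236 to 231 bases before the start and TATTTA, on the other strand, 122 to 117 bases before it. The Chil4 run holds TATAAA 31 to 26 bases before the start, and the Rpgrip1 run holds TATAAA on the other strand 135 to 130 bases before it. The Bpifb1 run, with 55.6% G and C against 34% for Chil4, holds none of these motifs. Either forkhead core was found in the promoters of 4 of the 27 called genes with an entry (14.8%), all 4 among the 19 lower genes and none among the 8 higher genes, and in 22.1% of 32851 promoters of the same length. A match is a description of letters in this window and shows no binding.

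Bpifb1 and Pga5, each on a list of gland cell genes, rose as well. Bpifb1, a secreted protein of the mucosal defence family that carries the BPI fold, was read by 2 probe sets and both were called. On the brighter it lay at 6.09 and 6.005 in BL6 and at 11.71 and 9.64 in Satin, with 6.86 and 6.26 in Beige. Both Satin arrays were far above the controls, and they also differed from each other by more than any control pair did. The rise was 24.7-fold (difference 4.63, SE 0.57, adjusted p = 0.0244) on that probe set and 30.6-fold on the other (adjusted p = 0.0412). Without Satin replicate 2 the adjusted p was 0.0113 on both probe sets, and without any of the other 5 arrays it lay between 0.0796 and 0.244, so that the call was lost. Pga5, a pepsinogen, rose 9.79-fold, from 8.22 and 8.08 in BL6 to 11.72 and 11.16 in Satin (difference 3.29, SE 0.26, adjusted p = 0.00367). That call held in 5 of 6 omissions and was lost without Satin replicate 1 (adjusted p = 0.0617).

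Of 14 measured chief cell genes, Pga5 was the 1 called (beside 0.226% of all genes). Their median difference was 0.12, which was -0.06 without BL6 replicate 1 and 0.64 without BL6 replicate 2. Pgc, the pepsinogen made in antral glands as well, lay at 12.94 and 12.88 in BL6 and 13.15 and 13.21 in Satin (difference 0.27, adjusted p = 0.739), and its sign turned with median centring (-0.15). Chil3, the close relative of Chil4, lay at 5.15 and 5.31 in BL6 and at 6.84 and 8.50 in Satin on the probe set that carries its symbol alone (difference 2.44, SE 0.76, adjusted p = 0.371), and Beige replicate 1 read 7.32. Of 6 chitinases and chitinase-like lectins, Chil4 was the 1 called (beside 0.226% of all genes) and 5 had a positive difference. Chia1, the acidic chitinase of the stomach, lay at 12.98 and 12.85 in BL6 and 13.05 and 12.96 in Satin. Of 9 measured gland mucous cell genes, Bpifb1 was the 1 called (beside 0.226% of all genes). Tff2, the trefoil peptide of these cells, differed by 0.15 (adjusted p = 0.88). Pgc, Chia1 and Tff2 lie near the top of the signal range, where an array can fail to show a change.

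Among genes of cell shape and junctions, Cap1, which recycles actin monomers, rose on both of its probe sets. On the brighter it went from 6.83 and 6.37 in BL6 to 10.18 and 10.01 in Satin, an 11.3-fold rise (difference 3.49, SE 0.25, adjusted p = 0.00335), and on the other it rose 15.2-fold (adjusted p = 0.0087). The first call was lost without Satin replicate 1 (0.0824) and the second without Satin replicate 1 (0.181), Satin replicate 2 (0.131) or BL6 replicate 1 (0.063). Cldn3, a tight junction claudin, rose on 3 of 4 probe sets by 3.89, 3.77 and 2.88, while the brightest differed by 3.93 (SE 0.60, adjusted p = 0.0626). On that brightest probe set the BL6 arrays read 5.20 and 7.28 and the Satin arrays 10.29 and 10.06. The Cldn3 calls of 3.89 and 3.77 were kept without either BL6 array and lost without any Satin or Beige array (adjusted p from 0.102 to 0.269), and that of 2.88 was lost in every omission (0.0555 to 0.32). Sdc4, the heparan sulfate proteoglycan syndecan-4, rose 3.31-fold from 8.03 and 7.64 to 9.69 and 9.44, a call lost in every omission (adjusted p from 0.0519 to 0.28). Of 21 genes of claudins and tight junctions, none was called on its brightest probe set, 8 had Satin arrays above both BL6 arrays and 5 below (beside 19.2% and 21.9% of all genes), and Ocln, which encodes occludin, was next with a difference of 1.11 (SE 0.18, adjusted p = 0.0838).

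The remaining rises were of Ctse, Ptp4a2, Nedd4, Gnb1 and Gsr. Ctse, the aspartic protease cathepsin E, rose on the dimmer of its probe sets from 6.97 and 7.10 to 9.45 and 9.06 (difference 2.22, SE 0.21, adjusted p = 0.00949). Its bright probe set, near the top of the range, differed by 0.18 (adjusted p = 0.859). On the called probe set Ptp4a2, a phosphatase of the PRL family, rose 3.01-fold and Nedd4, a ubiquitin ligase, 2.71-fold. Gnb1, a G protein beta subunit, rose 2.49-fold there and Gsr, glutathione reductase, 2.43-fold. Other probe sets differed by -0.07 and 0.24 for Nedd4 and by 0.53 and -0.07 for Gnb1. The brighter probe set of Gsr differed by 0.60 and was not called. Ptp4a2 kept its call without either BL6 array and lost it without any of the other 4 (adjusted p from 0.0625 to 0.0995). Ctse, Nedd4, Gsr and Gnb1 kept theirs without BL6 replicate 2 and lost it without any of the other 5 (0.0515 to 0.402).

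**Figure D3:**
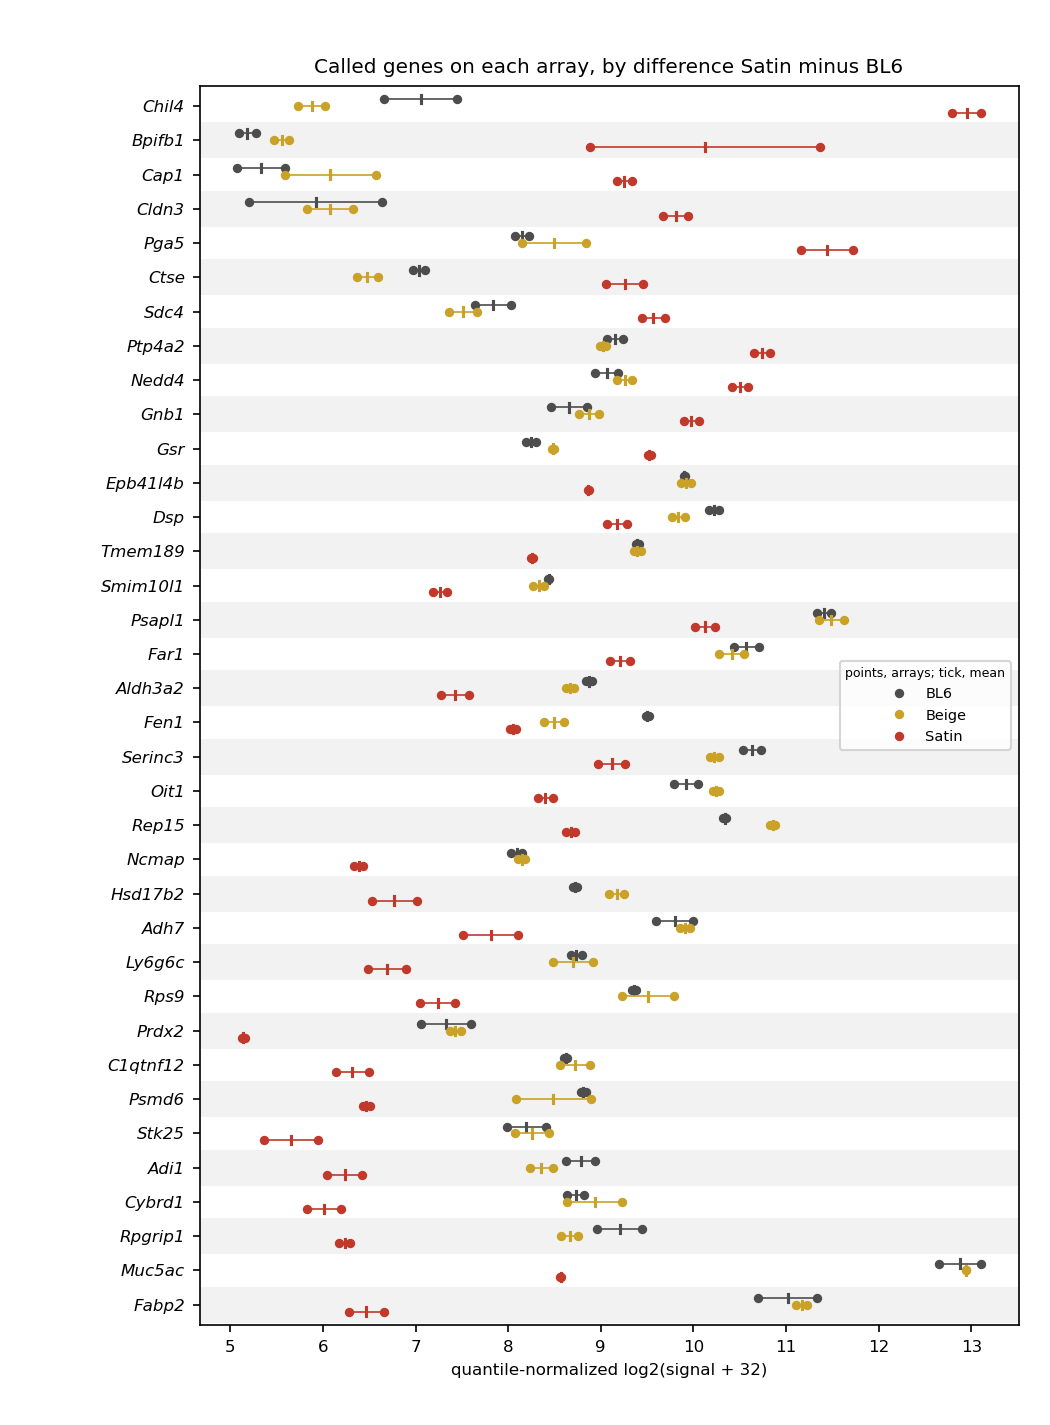
Levels of the 36 called genes on each array, ordered by the difference Satin minus BL6, on the x axis as quantile-normalized log2(signal + 32), with the called probe set of largest difference for each gene, points for arrays and ticks for means. Satin arrays lie to the right of the BL6 arrays in the upper 11 rows and to the left in the lower 25, and the Bpifb1 arrays of Satin, at 11.36 and 8.88 on this probe set, are the widest spaced.

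Cybrd1 and Hsd17b2, both oxidoreductases, were among the falls. Cybrd1, the reductase that prepares dietary iron for uptake, fell 6.58-fold, from 8.64 and 8.82 in BL6 to 5.83 and 6.20 in Satin, with 9.23 and 8.64 in Beige (difference -2.72, SE 0.24, adjusted p = 0.00642). Both Satin arrays lay below all control arrays. The call was lost without BL6 replicate 1 (0.0556) or Satin replicate 1 (0.0885). No other of 16 iron genes was called (beside 0.226% of all genes). Tfrc, the transferrin receptor, lay at 8.06 and 8.59 in BL6 and 9.20 and 8.96 in Satin (difference 0.75, adjusted p = 0.506). Hsd17b2, which inactivates sex steroids, fell 3.86-fold from 8.70 and 8.74 to 6.53 and 7.02 (difference -1.95, SE 0.20, adjusted p = 0.0117). It kept its call without BL6 replicate 2 or Satin replicate 2 and lost it without any of the other 4 arrays (0.0767 to 0.0998). Of 26 alcohol, retinoid and steroid enzymes, Hsd17b2 and Adh7 were called lower and none higher (beside 0.169% and 0.0565% of all genes). The median difference of the list was -0.17, and ran from -0.27 without BL6 replicate 2 to -0.08 without Satin replicate 1. It was 0.11 without normalization and 0.15 with scaling to hybridization controls (-0.28 and -0.30 relative to all probe sets). Aldh1a1, a retinal dehydrogenase, lay at 10.70 and 10.30 in BL6 and 11.54 and 11.27 in Satin (difference 0.91, adjusted p = 0.162).

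Aldh3a2, Far1 and Tmem189, which act on fatty aldehydes, fatty alcohols and ether lipids, were also among the falls, a grouping made after their values were seen. Aldh3a2, which oxidizes fatty aldehydes, fell from 8.90 and 8.84 to 7.58 and 7.28. Far1, which makes fatty alcohols, fell from 10.71 and 10.43 to 9.31 and 9.10. Tmem189, a desaturase of ether lipids, fell from 9.38 and 9.41 to 8.25 and 8.27. The falls were 2.72-fold, 2.57-fold and 2.20-fold with adjusted p of 0.017, 0.0253 and 0.0178, and Far1 was negative on all 5 of its probe sets. Aldh3a2 lost its call in every omission (0.0507 to 0.161), and Far1 and Tmem189 kept theirs without BL6 replicate 2 alone (0.0727 to 0.255 in the other 5). Without normalization, with median centring and with scaling to the hybridization controls these 3 genes were not called, and that of Tmem189 was as small as -0.35.

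The next falls to describe are those of C1qtnf12, Ly6g6c, Oit1, Psapl1, Rep15 and Ncmap. C1qtnf12, the secreted protein adipolin, fell 4.94-fold from 8.60 and 8.64 in BL6 to 6.50 and 6.14 in Satin (difference -2.30, SE 0.20, adjusted p = 0.0063), and its other 3 probe sets differed by -1.16, -1.97 and -0.95. Ly6g6c, a GPI-anchored protein of the Ly6 family, fell 4.13-fold from 8.67 and 8.80 to 6.49 and 6.89 (adjusted p = 0.0132). Its relative Slurp1, a secreted Ly6 protein, lay at 8.55 and 8.78 in BL6 and 5.77 and 6.93 in Satin, just outside the threshold (difference -2.31, SE 0.34, adjusted p = 0.0534), and it passed in 9 of 13 other fits and 1 omission (adjusted p from 0.0117 to 0.348). Oit1, also known as Fam3d, a secreted peptide of the gut, fell from 10.05 and 9.78 to 8.48 and 8.32. Psapl1, a relative of prosaposin, fell from 11.34 and 11.48 to 10.02 and 10.23. Psapl1 was not called without normalization, with median centring or with scaling to hybridization controls (adjusted p = 0.0926, 0.185 and 0.0733). Oit1 was not called without normalization (0.0529). Rep15, an effector of the GTPase Rab15, fell 3.16-fold from 10.32 and 10.36 to 8.63 and 8.73 (adjusted p = 0.00367), and Beige stood at 10.83 and 10.88. Ncmap, a protein named for noncompact myelin, fell 3.26-fold from 8.15 and 8.04 to 6.33 and 6.44.

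Among these genes C1qtnf12 lost its call without BL6 replicate 1 (0.0556), Satin replicate 1 (0.0617) or Satin replicate 2 (0.0625), and Rep15 without Satin replicate 1 (0.0885) or Satin replicate 2 (0.0523). Oit1 and Ncmap were called without BL6 replicate 2 and lost in the other 5 omissions (0.0556 to 0.184). Ly6g6c and Psapl1 were lost in every omission, with adjusted p from 0.0555 to 0.148 and from 0.0694 to 0.445. Of 12 measured Ly6 and Slurp family genes, Ly6g6c was the 1 called (beside 0.226% of all genes), and 9 had a negative difference. The median of the list was -0.26, and -0.01 without BL6 replicate 2. It was 0.11 without normalization and 0.19 with scaling to hybridization controls (-0.28 and -0.27 relative to all probe sets).

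Other falls concerned genes with widely differing roles. Rpgrip1, a protein of the photoreceptor cilium, fell 7.84-fold on 1 of its 4 probe sets, from 9.45 and 8.96 in BL6 to 6.18 and 6.29 in Satin (difference -2.97, SE 0.21, adjusted p = 0.00329), a call lost without Satin replicate 1 (0.0591). Stk25, a kinase of the Golgi, fell 5.82-fold from 7.99 and 8.41 to 5.95 and 5.37 and was lost in every omission (0.0665 to 0.13). Adi1, an enzyme of methionine salvage, fell on 2 probe sets with differences of -2.55 and -1.92 (adjusted p = 0.00563 and 0.00628), while the third differed by 0.82 (adjusted p = 0.456). The larger Adi1 call was lost without Satin replicate 1 (0.0796) and the smaller also without Satin replicate 2 (0.0885 and 0.0625). Fen1, a nuclease of DNA replication, fell 2.73-fold, from 9.48 and 9.52 in BL6 to 8.02 and 8.09 in Satin, with 8.60 and 8.39 in Beige. Its difference between Beige and BL6 was -1.01 and that between Satin and Beige -0.44 (adjusted p = 0.485), so most of the distance lay between the control strains. For Satin minus BL6 the dimmer probe set of Fen1 differed by -0.52, with overlapping groups. The Fen1 call was lost without normalization (adjusted p = 0.0546) and with median centring (0.0583). Fen1 kept its call without BL6 replicate 2 alone (0.063 to 0.17 in the other 5).

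For 23 of the 36 called genes the array holds more than 1 probe set, and for 12 of these another probe set differed in the opposite direction. That count goes by sign alone and includes small differences, such as 0.01 for Tmem189 and -0.07 for Gnb1. Rps9, a ribosomal protein, was called lower at -2.12 (adjusted p = 0.0117), while its brightest probe set differed by 1.06 (adjusted p = 0.0893) and the third by 0.54. Prdx2, a peroxiredoxin, was called lower at -2.18 on a dim probe set (adjusted p = 0.047) and differed by 0.53 on its bright one. Psmd6, a proteasome subunit, was called lower at -2.34 (adjusted p = 0.0146), beside -0.20 on its bright probe set (adjusted p = 0.693). Sdc4 was called higher at 1.73 beside -0.49, and Ptp4a2 at 1.59 beside -0.60, 0.42 and 0.64. Serinc3, a membrane protein with several transmembrane spans, was called lower at -1.52 and its other 4 probe sets ran from -0.99 to 0.37. Dsp, the desmosome protein desmoplakin, Epb41l4b, a band 4.1 family protein, and Smim10l1 fell by 1.05, 1.04 and 1.17 on the called probe set, beside 0.01 and 0.47, 0.18 and -0.02 on the others. A change in these genes is therefore a statement about the called probe set. Probe sets whose names end in _s_at or _x_at can match more than 1 transcript, and 5 genes (Ctse, Fen1, Rps9, Serinc3 and Tmem189) were called by such a probe set alone. Without normalization, with median centring and with scaling to the hybridization controls Dsp, Epb41l4b and Smim10l1 were not called (adjusted p from 0.174 to 0.407). Serinc3 was not called without normalization (0.0716) or with median centring (0.104). These calls were also open to single arrays: Prdx2, Dsp and Smim10l1 were lost in every omission (0.0589 to 0.445), Serinc3 and Epb41l4b were kept without BL6 replicate 2 alone (0.0552 to 0.315 in the other 5), and Rps9 and Psmd6 were kept without either Beige array alone (0.0514 to 0.195 in the other 4).

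**Figure D4:**
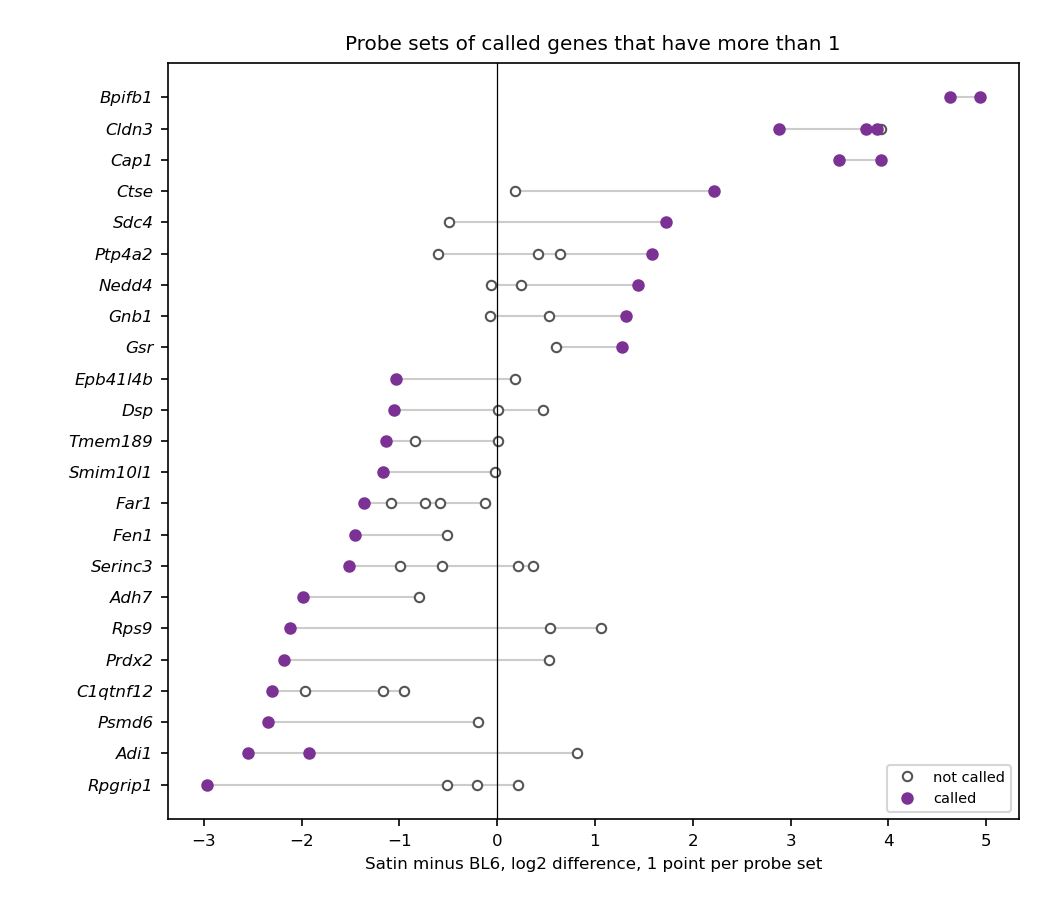
Log2 difference Satin minus BL6 on the x axis for every probe set of the 23 called genes that have more than 1, with filled points for called and open points for uncalled probe sets. Those of Bpifb1, Cap1, Cldn3, C1qtnf12 and Far1 lie on 1 side of 0, and those of Rps9, from -2.12 to 1.06, lie on both sides.

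Endocrine cell genes were lower without a call. Chgb, a granin of hormone granules, lay at 10.66 and 9.55 in BL6 and at 7.04 and 7.87 in Satin, with 9.20 and 9.78 in Beige (difference -2.66, SE 0.40, adjusted p = 0.0616). Chga, the related granin, lay at 8.87 and 8.89 in BL6 and 7.63 and 7.59 in Satin (difference -1.27, adjusted p = 0.101). Gast, which encodes gastrin, lay at 12.05 and 11.82 in BL6 and at 10.18 and 11.08 in Satin (difference -1.30, SE 0.28, adjusted p = 0.19). In these 3 genes both Satin arrays lay below both BL6 arrays. Chgb passed the threshold without BL6 replicate 2 (0.0421) and in 7 of 13 other fits, its adjusted p running from 0.0184 to 0.495 over all of them, and Chga passed in 1 (0.0449). Of 30 measured enteroendocrine genes none was called, 24 had a negative difference, and in 17 both Satin arrays lay below both BL6 arrays, which was so for 21.9% of all genes. Their median difference was -0.35, between -0.46 and -0.29 when 1 array was left out, and near 0 without normalization (-0.03) and with scaling to hybridization controls (0.01), where the median of all probe sets lay at 0.39 and 0.45. The hormones were not alike: Sst, which encodes somatostatin, differed by -0.36 and Ghrl, which encodes ghrelin, by -0.21, with overlapping groups.

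Smooth muscle genes lay lower as a list, again without a call. Des, which encodes the muscle filament desmin, lay at 9.15 and 8.74 in BL6 and 7.35 and 7.93 in Satin (difference -1.31, SE 0.23, adjusted p = 0.0979). Tpm2, a tropomyosin, lay at 11.41 and 11.24 in BL6 and 10.18 and 10.47 in Satin (difference -1.002, adjusted p = 0.0955). Of 19 measured genes, 18 had a negative difference. In 15 both Satin arrays lay below both BL6 arrays, beside 21.9% of all genes. The median difference was -0.64, moving to -0.36 without BL6 replicate 1 and -0.75 without BL6 replicate 2. It was -0.03 without normalization and 0.09 with scaling to hybridization controls, which is -0.41 and -0.37 relative to all probe sets, and -0.21 with the Gapdh ratio as a covariate. Des and Tpm2 passed the threshold in 2 and 3 of the 13 other fits (lowest adjusted p of 0.0407 and 0.0395, highest over all fits of 0.616 and 0.755). Averaged over the list, the level was 9.68 and 9.22 in BL6 and 8.81 and 8.91 in Satin, while Beige gave 9.46 and 9.73. How much muscle was taken with the mucosa is not given in the sources used here, and its part in the other results was not tested.

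Fibroblast and matrix genes, which lie in the same layers, had a median of -0.21 over 22 genes with none called, which was 0.42 without normalization and 0.53 with scaling to hybridization controls (0.03 and 0.08 relative to all probe sets), and ran from -0.40 without BL6 replicate 2 to -0.13 without BL6 replicate 1. Col1a2, a chain of collagen I, lay at 10.12 and 9.95 in BL6 and 9.57 and 9.31 in Satin (difference -0.59, adjusted p = 0.303), and its sign turned without normalization (0.08) and with scaling to hybridization controls (0.20). Fbln1, a matrix glycoprotein, went the other way, from 6.64 and 7.58 to 8.37 and 8.06 (difference 1.10, adjusted p = 0.345).

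The listed genes of cell division and of the mitochondrial respiratory chain lay mostly higher in Satin, without a call. Fen1, the nuclease of DNA replication called lower above, is not on the proliferation list. Ube2c, a ubiquitin-conjugating enzyme of mitosis, lay at 7.52 and 7.67 in BL6 and 8.49 and 8.54 in Satin (difference 0.92, SE 0.16, adjusted p = 0.103). Cdc20, which also acts in mitosis, lay at 7.43 and 7.44 in BL6 and 8.45 and 8.37 in Satin (difference 0.98, adjusted p = 0.204). Of 31 measured proliferation genes 24 had a positive difference, and in 18 both Satin arrays lay above both BL6 arrays, which was so for 19.2% of all genes. Their median was 0.30. For 32 genes of oxidative phosphorylation the median was 0.42, 29 were positive and 23 had groups that did not overlap, with Atp5a1, a subunit of ATP synthase, at 11.24 and 11.47 in BL6 and 12.26 and 12.22 in Satin (difference 0.88, SE 0.18, adjusted p = 0.162). The corresponding median for Beige minus BL6, which shares the BL6 arrays, was 0.29, and Atp5a1 read 11.66 and 11.89 in Beige. The ratio of 5' to 3' Gapdh signal was lowest on BL6 replicate 1. With that ratio as a covariate the respiratory chain median was 0.29 and the proliferation median 0.43, and without that array they were 0.33 and 0.46. Without normalization and with scaling to hybridization controls the medians were 1.04 and 1.16 for the respiratory chain (0.65 and 0.71 relative to all probe sets) and 0.92 and 1.02 for proliferation (0.53 and 0.56 relative to all probe sets). Under these 2 scalings Atp5a1, Ube2c and Cdc20 passed the threshold, with adjusted p of 0.0373 and 0.00586 for Atp5a1, which passed with robust eBayes too (0.048) and reached 0.843 without Satin replicate 1.

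**Figure D5:**
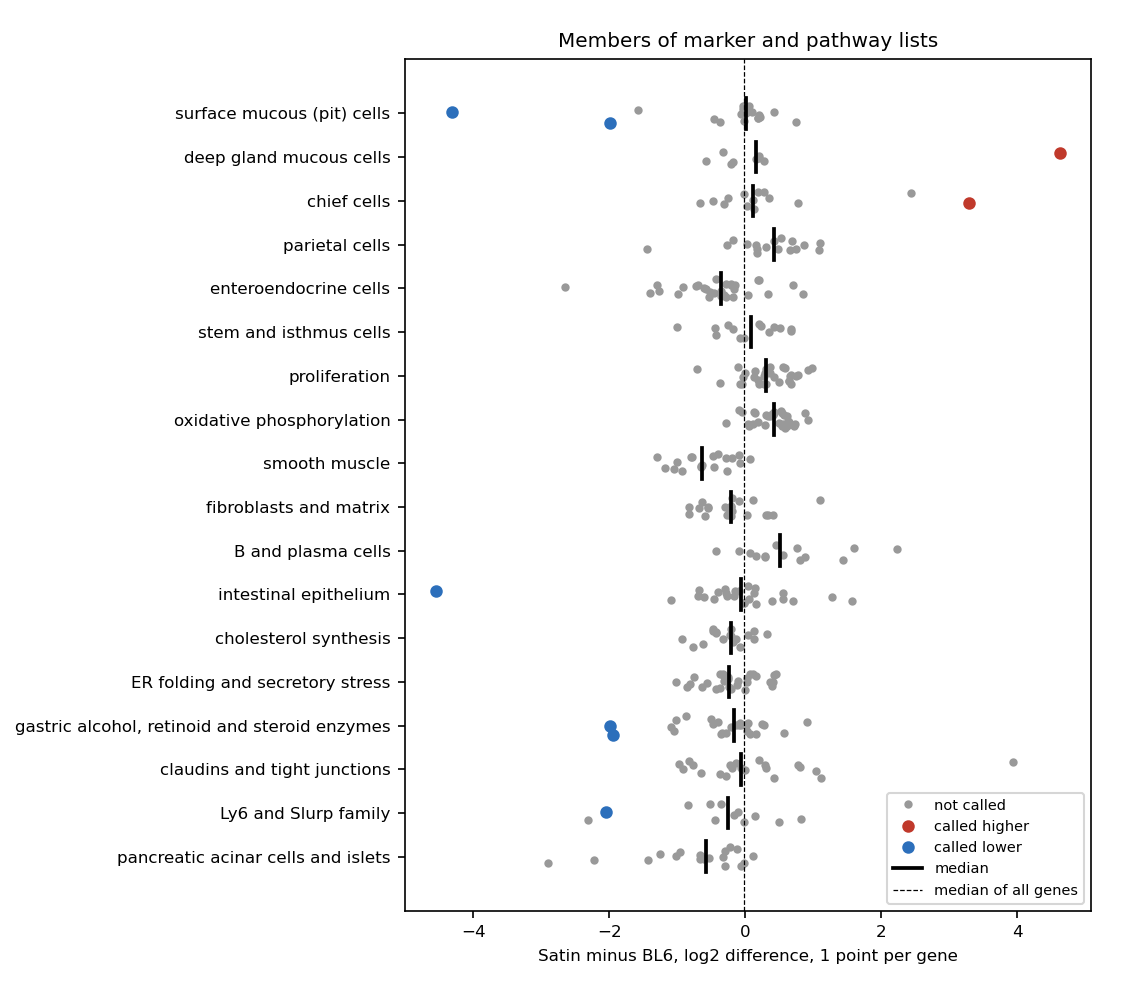
Log2 difference Satin minus BL6 on the x axis for the members of 18 lists, 1 point per gene on its brightest probe set, with a bar at the median of each list and a dashed line at the median of all genes. Smooth muscle members lie to the left of 0 with a median of -0.64 and oxidative phosphorylation members to the right with 0.42, and the pancreatic list is spread down to -2.91.

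Acid-secreting parietal cells are few in the antrum and mark neighbouring corpus tissue. Of 17 measured parietal genes none was called, and the median was 0.42, falling to 0.13 without Satin replicate 1. Atp4a, the catalytic subunit of the proton pump, lay at 11.11 and 12.03 in BL6 and 12.70 and 11.94 in Satin, with overlapping groups (difference 0.75, adjusted p = 0.577), and Atp4b, its other subunit, differed by 0.48 (adjusted p = 0.634). The spread of Atp4a between the arrays of a strain was as large as its difference between strains. Slc4a2, a basolateral anion exchanger, lay at 8.85 and 9.12 in BL6 and 10.25 and 9.45 in Satin (difference 0.86, adjusted p = 0.334). Kcne3, a potassium channel subunit on the same list, went the other way, from 9.47 and 8.42 to 6.94 and 8.06 (difference -1.45, adjusted p = 0.35).

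Intestinal and pancreatic genes varied between arrays of a strain. Of 26 intestinal epithelium genes Fabp2 was the 1 called (beside 0.226% of all genes). The median difference of the list was -0.06, moving to -0.22 without Satin replicate 2 and 0.03 without BL6 replicate 2. It was 0.28 without normalization and 0.35 with scaling to hybridization controls (-0.11 relative to all probe sets under both). Rbp2, the retinol binding protein of enterocytes, lay at 8.57 and 9.32 in BL6 and 7.58 and 8.12 in Satin (difference -1.09, adjusted p = 0.248). Cdx1, an intestinal transcription factor, stayed near the lowest level of the scale on all 4 arrays, at 5.25 and 5.44 in BL6 and 5.09 and 5.04 in Satin. Zg16, a lectin of goblet and acinar granules, lay at 11.10 and 12.73 in BL6, and at 6.55 on Satin replicate 1 and 11.46 on Satin replicate 2. Fcgbp and Clca1, gel proteins of goblet cells, were low on the same Satin array, at 6.74 and 8.69 against 10.42 and 11.58 on the other. The pancreatic list had a median of -0.57 that moved to -3.76 without BL6 replicate 1 and to 1.95 without BL6 replicate 2, and none of its 18 genes was called. Ins2, which encodes insulin, was high on BL6 replicate 2 alone (10.19, against 5.41 to 6.004 on the other 5 arrays). Alb, which encodes albumin, read 10.61 on Satin replicate 2 and 5.20 to 6.50 on the other 5, and its difference of 2.84 had an SE of 1.09 (adjusted p = 0.459). The part of such admixed tissue in other results was not tested. With the arrays numbered 1 alone Muc5ac, Chil4 and Fabp2 differed by -4.55, 6.13 and -5.05, and with those numbered 2 alone by -4.08, 5.65 and -4.04. The side of these differences was fixed beforehand, since both Satin arrays of each gene lay outside the range of the BL6 arrays.

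Immune and defence genes other than Bpifb1, whose called rise is given above, lay higher in several cases without a call. Igha, the heavy chain of IgA, lay at 7.57 and 9.03 in BL6 and at 10.61 and 10.46 in Satin, but at 6.02 and 6.17 in Beige (difference 2.23, SE 0.40, adjusted p = 0.103). Igha passed the threshold in 5 of 13 other fits and without BL6 replicate 2 (0.00728), with adjusted p from 0.00231 to 0.736. The control strains were thus as far apart for Igha, at -2.21 for Beige minus BL6, as Satin was from BL6. Cd74, the invariant chain of antigen presentation, lay at 8.72 and 8.59 in BL6 and 9.24 and 9.68 in Satin (difference 0.80, adjusted p = 0.218). The 14 B and plasma cell genes had a median of 0.50, which was 1.12 without Satin replicate 1 and 0.30 without Satin replicate 2. S100a8, a calprotectin subunit of neutrophils, lay at 5.15 and 5.83 in BL6 and 7.11 and 7.36 in Satin (difference 1.75, adjusted p = 0.16), and Itln1, an intelectin of goblet and Paneth cells, at 5.12 and 5.20 against 6.51 and 8.30 (difference 2.25, adjusted p = 0.241). The list of 23 antimicrobial and mucosal defence genes does not hold Bpifb1. None of the 23 was called, and 7 lay above and 6 below without overlap (beside 19.2% and 21.9% of all genes). Interferon response genes went the other way, with 18 of 25 negative, none called and a median of -0.19. That median was 0.16 without normalization and 0.21 with scaling to hybridization controls (-0.23 and -0.24 relative to all probe sets). It ran from -0.28 without BL6 replicate 2 to -0.09 without BL6 replicate 1.

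Metabolic and stress genes gave no further call. Krt7, a keratin of simple epithelium, lay just outside the threshold, at 9.61 and 9.61 in BL6 and 7.23 and 8.17 in Satin (difference -1.91, SE 0.27, adjusted p = 0.0507), while Krt8, Krt18 and Krt19 differed by -0.01, 0.13 and 0.01. Krt7 passed in 8 of 13 other fits and without Satin replicate 2 (0.0165), with adjusted p from 0.0121 to 0.387. Scd1, the stearoyl-CoA desaturase, lay at 7.51 and 8.79 in BL6 and 10.55 and 11.30 in Satin, with Beige between at 9.82 and 9.09 (difference 2.78, SE 0.43, adjusted p = 0.0699), and it passed in 5 of 13 other fits and without BL6 replicate 2 (adjusted p from 0.00168 to 0.469). Me1, which supplies NADPH for lipid synthesis, lay at 10.77 and 10.64 in BL6 and 11.50 and 11.72 in Satin (adjusted p = 0.101), and the 20 genes of fatty acid and triglyceride synthesis had a median of -0.11, which was 0.49 without normalization and 0.60 with scaling to hybridization controls (0.10 and 0.14 relative to all probe sets), and 0.03 without Satin replicate 1. Nqo1, a quinone reductase, lay at 10.85 and 10.30 in BL6 and 9.35 and 9.30 in Satin (difference -1.25, adjusted p = 0.0639), and Cyp3a13, a cytochrome P450, at 8.16 and 7.60 against 6.50 and 6.42 (difference -1.42, adjusted p = 0.0942). These lead a list of 35 xenobiotic enzymes with a median of -0.10 (-0.06 without Satin replicate 2, 0.49 and 0.54 under the same 2 scalings, 0.10 and 0.09 relative to all probe sets). Of the 35, 15 lay below and 5 above BL6 without overlap, beside 21.9% and 19.2% of all genes.

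The 18 cholesterol synthesis genes had a median of -0.21 (-0.36 without BL6 replicate 2, 0.30 and 0.41 under the same 2 scalings, -0.09 and -0.04 relative to all probe sets). Of these, 9 lay below without overlap, beside 21.9% of all genes. The list was led by Sc5d, a sterol desaturase, at -0.93 (adjusted p = 0.24), and Cyp51, the lanosterol demethylase, at -0.63. The sign of Cyp51 turned without normalization (0.04) and with scaling to hybridization controls (0.15). The 29 genes of protein folding in the endoplasmic reticulum had a median of -0.24 (-0.12 without BL6 replicate 2, 0.30 and 0.42 under the same scalings, or -0.09 and -0.04 relative to all probe sets), led by Dnajc3, a cochaperone, at -0.82 (adjusted p = 0.16), and Asns, asparagine synthetase, at -0.75, which was 0.03 with scaling to hybridization controls. Of 16 cytosolic heat shock genes none was called, and Hspa1b, an inducible heat shock protein, read 10.02 and 8.56 in BL6 and 10.85 and 10.41 in Satin, with Beige below both at 7.69 and 8.01. Stem and isthmus cell genes had a median of 0.09 over 14 genes, running from -0.09 without Satin replicate 2 to 0.25 without Satin replicate 1, with Stmn1, a tubulin regulator of dividing cells, at 0.67 (adjusted p = 0.192) and Prom1, a membrane glycoprotein, at -1.01 (adjusted p = 0.322). The 12 adipocyte genes had a median of 0.26, which was -0.36 without BL6 replicate 1 and 0.55 without BL6 replicate 2. Adipoq, which encodes adiponectin, read 5.05 on BL6 replicate 1 and 7.12 to 8.70 on the other 5 arrays, and Pparg, the adipogenic nuclear receptor, differed by -0.44, a sign that turned without normalization (0.23) and with scaling to hybridization controls (0.34). The other 19 lists, with 299 entries and the interferon response among them, held no call and had medians from -0.28 to 0.21.

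The called genes were also set beside the second control strain. Beige against BL6 gave 0 calls among 22626 probe sets with limma, with 1149 at an unadjusted p under 0.05, and 1 call without BL6 replicate 1. For the 48 probe sets called between Satin and BL6 the difference Beige minus BL6 lay within 0.5 of 0 in 37, and reached 2.51 in size on an unnamed probe set, -1.18 for Chil4 and -1.01 for Fen1. With no call in that comparison, its adjusted p-values do not show that the control strains are alike. Side by side, Chil4 differed by 5.89 from BL6 and 7.07 from Beige, Fabp2 by -4.55 and -4.70, Muc5ac by -4.31 and -4.38, Pga5 by 3.29 and 2.94, and Cybrd1 by -2.72 and -2.92. The Satin arrays enter both differences. Xist, the transcript of the inactive X chromosome, stayed low on all arrays, at 6.05 and 6.19 in BL6 and 5.85 and 5.99 in Satin (difference -0.20, adjusted p = 0.901). By chromosome, the share of called genes was highest on chromosome 4, with 6 of 739 measured genes (0.812%), beside 36 of 12393 over all chromosomes (0.29%), and none was called among 402 genes on the X chromosome.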

How the data were processed

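RNA of the stomach antrum was extracted with Trizol and hybridized as biotinylated cRNA to Affymetrix arrays, per the labels' protocols, with 1 array for each of 6 samples. The deposited values are linear intensity values for each probe set. How they were summarized and scaled, and detection calls, were not given in the sources used here. Values of 22690 probe sets were taken, 64 control probe sets were left out, and log2(signal + 32) was quantile normalized over the 6 arrays. All 6 arrays were fitted with limma 3.58.1 (R 4.3.3, eBayes with an intensity trend, residual degrees of freedom 3, total 7.91), and p-values were adjusted by Benjamini-Hochberg over 22626 probe sets. The number of arrays, 2 for each strain, limits the precision. The fit was also run on simulated data with independent noise for each probe set and array. Those data hold no effect shared across probe sets of an array, such as admixed tissue or RNA integrity.

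Of the probe sets tested, 20380 carry 1 gene symbol in the platform annotation, 691 several and 1555 none, and only those with 1 symbol were named. A gene in a list was represented by its brightest probe set. The rule named a panel of gastric genes with Foxq1 and Lyst, up to 15 called genes in each direction by size, called genes with a probe set of opposite sign, and in each list up to 4 called members, or, failing those, its 2 members of lowest p. The other called genes and further members named beside them were chosen after their values were seen. The comparison and the 46 lists, with 823 of 955 members on the array, were chosen with earlier results of these data known. Muc6 and Ddx3y were not analysed here. Promoter sequences and the order of genes around Foxq1 come from RefSeq (GRCm38.p6). Alternatives covered the pseudocount, scaling, low signals, the variance model, the arrays in the fit and a replicate block.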

Additional observations from a re-analysis of the deposited data

How the results depend on the processing

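The 48 calls became 936 without normalization, 3264 with scaling to the hybridization controls, 85 with the lowest 30 percent of probe sets left out, 89 with robust eBayes, 18 with the 4 arrays alone, 6 with the Gapdh ratio as a covariate and 5 with no intensity trend. They numbered 46 to 63 with another pseudocount or median centring, and 33 with 1 probe set per gene (70 with low signals also left out). Leaving out 1 array gave between 5 and 87 calls, and for Beige minus BL6 between 0 and 1. Of the 48, 41 were also called with scaling to the hybridization controls, 38 without normalization, 18 with 4 arrays alone, 5 with no trend and 4 with the Gapdh covariate. For smaller sets of arrays the fit has fewer samples, and the cause of the other moves was not tested.

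Among uncalled genes the sign turned for Col1a2 (0.084 without normalization, 0.20 with hybridization controls), Cyp51 (0.043 and 0.15), Pparg (0.23 and 0.34), Asns (0.026 with hybridization controls) and Pgc (-0.15 with median centring). Arrays of the same number deviated together with correlations of 0.122, 0.177 and 0.253, but with 2 numbers a pairing is not established. The fit with a replicate block made 49 calls, 42 of them among the 48, and the 6 not kept were Epb41l4b, Gnb1, Psapl1, Prdx2, Dsp and Smim10l1. The fits on arrays of 1 number alone were chosen after seeing the data and have no test. Signal near the lowest level of the scale limits dim genes such as Cdx1, and signal near the top limits Gkn1 and Gkn2.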
